A study of Mus musculus with 6 samples.

Results

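Genes that the glucocorticoid receptor is known to switch on directly were followed in ovarian tumours that arise in mice with an added B form of the progesterone receptor. The 10 genes were Fkbp5, Tsc22d3, Sgk1, Zbtb16, Errfi1, Hif3a, Arrdc2, Ddit4, Dusp1 and Lcn2, chosen as genes known to be induced by this receptor. Each was found by its symbol in the platform annotation and each had 1 probe, so that 10 of 37932 probes, and 10 of 21874 named genes, are described. The tumour RNA was run on 6 single-colour (Cy3) arrays, 3 from mice with a placebo pellet and 3 from mice with a chronic release pellet of RU486 (mifepristone), a steroid antagonist of both the progesterone and the glucocorticoid receptor. All mice of both groups carried the same alleles, written Pgrcre/+mPgrLsL/+ in the sample labels and Pgrcre/+PgrBLsL/+ in the series design. In such mice Cre is made from the Pgr locus, and a stop cassette between lox sites (LsL) keeps the added receptor silent until Cre removes it, so the added receptor is confined to cells that have used the Pgr locus. Tumours of 0.5 to 1 cm were taken after 24 h of pellet exposure. Age was not given in the labels, and they do not say that the arrays came from separate mice. The p-values therefore measure the spread between these samples, which may be technical. No group had an agent that acts on one of the receptors alone, so blockade of the glucocorticoid receptor and blockade of the progesterone receptor cannot be told apart here.

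The glucocorticoid receptor rests in the cytoplasm with heat shock proteins and co-chaperones. When it binds corticosterone, the main glucocorticoid of mice, it moves to the nucleus and sits on response elements made of a pair of short motifs facing each other across a short spacer. The progesterone receptor can bind the same elements, and several of these genes, Fkbp5, Sgk1, Zbtb16 and Errfi1 among them, are known to respond to progestins as well. Many of the products restrain signalling: they lower the receptor's own sensitivity, dampen inflammation or slow growth signals.

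The promoter of Sgk1 is shown because it carried the complete response element, and that of Dusp1 because Dusp1 was the 1 gene of the 10 that was not lower with RU486. Promoters are those of RefSeq on mouse build GRCm38.p6, from 250 bases before to 50 bases after an annotated start, read 5′ to 3′ on the gene's strand, and 9 of the 10 genes had at least 1 (17 in all); Zbtb16 had no entry. The Sgk1 promoter lies at chr10:21993640-21993939 on the plus strand and the Dusp1 promoter at chr17:26508423-26508722 on the minus strand. In Sgk1 capitals mark AGAACA, one arm of the response element, on either strand, and the spacer between paired arms. In Dusp1 they mark TGACG, the core of the cAMP response element, on either strand.
Sgk1: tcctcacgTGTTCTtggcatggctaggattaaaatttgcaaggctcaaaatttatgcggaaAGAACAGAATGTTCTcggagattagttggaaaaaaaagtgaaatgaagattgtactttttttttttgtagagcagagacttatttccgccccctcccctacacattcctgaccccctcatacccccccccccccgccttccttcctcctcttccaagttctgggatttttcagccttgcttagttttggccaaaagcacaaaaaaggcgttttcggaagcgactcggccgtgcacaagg
Dusp1: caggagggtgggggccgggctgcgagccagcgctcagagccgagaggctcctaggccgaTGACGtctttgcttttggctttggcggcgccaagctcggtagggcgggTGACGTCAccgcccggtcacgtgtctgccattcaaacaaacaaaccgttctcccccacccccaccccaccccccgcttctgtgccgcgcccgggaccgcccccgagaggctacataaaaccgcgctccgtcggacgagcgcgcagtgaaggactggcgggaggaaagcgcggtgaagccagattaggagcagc
In Sgk1 a pair of these arms forms the palindrome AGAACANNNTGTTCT, from 189 to 175 bases before the start, with another arm from 242 to 237 bases before it. Of 32851 mouse promoters of this length, 3 held the full palindrome (0.00913%) and 19.0% held at least 1 arm. Among the 17 promoters of the 10 genes, 4 held an arm, and they belonged to Sgk1 (3 of its 6 start sites) and Tsc22d3. For the other genes these letters were absent from these windows. The Dusp1 promoter held TGACG 3 times, of which a pair overlaps to give TGACGTCA from 143 to 136 bases before the start, and 1.03% of all promoters held it 3 times or more. Errfi1 has the same overlapping pair from 51 to 44 bases before one of its starts. Letter matches describe these sequences and were not set against the expression values by any test.

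The deposited values are scores: every probe had been centred on 0 and scaled to an SD of 1 over the 6 arrays. A score therefore says where an array stands relative to the other arrays for that probe, and not how bright the probe was. Fold changes or levels of different genes cannot be read from it. Each difference below was taken as mean score with RU486 minus mean score with placebo, and with all 6 arrays weighted equally it cannot pass 1.83 in size. On this scale a difference of 1.48 corresponds to an unadjusted p of 0.05, so the difference, its SE and its p carry the same information.

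Of the 10 genes, 9 were lower with RU486, against 50.1% of all probes. In 6 of them (Hif3a, Arrdc2, Lcn2, Sgk1, Errfi1 and Zbtb16) the RU486 arrays all lay below the placebo arrays, which was so for 10.05% of all probes, and in 0 they all lay above, which was so for 12.0%. The same 6 were lower at an unadjusted p of 0.05 in limma, against 6.39% of all probes, and 0 were higher, against 5.32% (11.7% in either direction). The median difference was -1.65 over the 10 genes and -0.00566 over all probes. None of the 10 passed an adjusted p of 0.05 over all probes, and 2 probes of the whole table did (0.00527%). These counts are a description, since the genes were picked with earlier results of these data known.

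**Figure D1:**
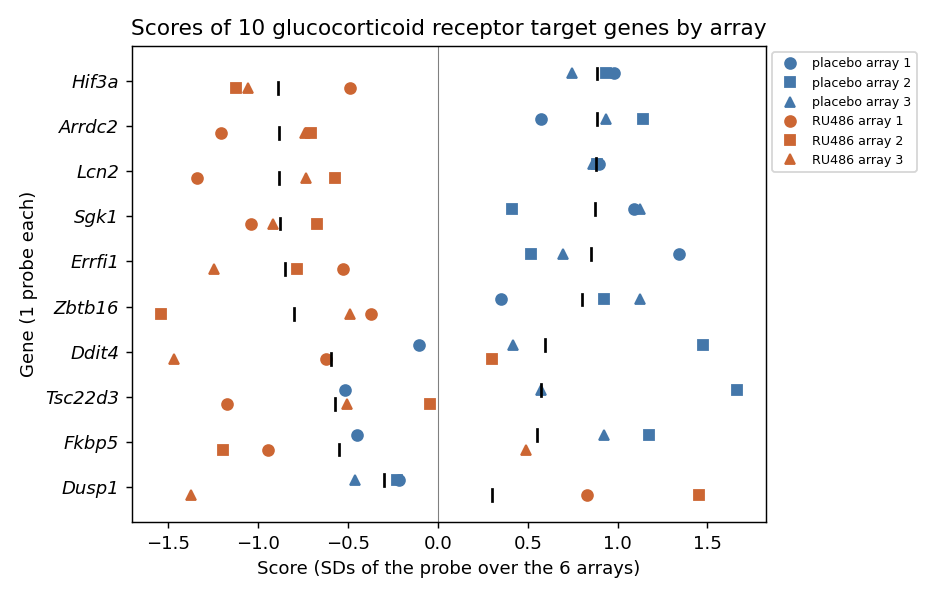
Scores of the 10 glucocorticoid receptor target genes on each array, in SDs of the probe over the 6 arrays (x axis), with 1 gene per row. Blue marks are placebo arrays, orange marks RU486 arrays, the shape gives the array number and black ticks are group means. In the 6 upper genes the groups do not overlap, whereas in Ddit4, Tsc22d3, Fkbp5 and Dusp1 they do.

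1 array stood apart in its blood cell genes and has to be known before single genes are read. On placebo array 1 the mean score of 7 red cell genes, globins among them, was 1.96, against -0.419 and 0.0737 on placebo arrays 2 and 3 and from -0.555 to -0.520 on the RU486 arrays. Neutrophil genes were mixed there: of 17 probes 8 had their highest score of the 6 arrays on it, granule genes such as Ngp (2.04) and Elane (1.91) among them, while 7 were below 0 and 2, for Csf3r (-1.38) and Stfa2 (-1.30), had their lowest. Across the whole table placebo array 1 also held the lowest of the placebo scores for 47.9% of probes. RU486 array 1 held the lowest of the RU486 scores for 41.2%. The median score over all probes was -0.384 on placebo array 1, -0.363 on RU486 array 1 and from -0.154 to 0.212 on the other arrays. The counts over the 10 genes are given without placebo array 1 too, as are single values and list medians that it turns or moves by over 1.5 times. In those fits each probe keeps its scaling over all 6 arrays, placebo array 1 included, so a smaller difference need not mean a weaker separation.

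Fkbp5 makes a co-chaperone that lowers the affinity of the receptor for its hormone, and its induction is a common read-out of glucocorticoid action. Its scores were -0.451, 1.17 and 0.925 on placebo arrays 1 to 3 and -0.943, -1.20 and 0.491 on RU486 arrays 1 to 3. Placebo array 1 was low and RU486 array 3 was high, so the groups overlapped. The difference was -1.10 (SE 0.729, limma adjusted p = 0.613), and an exact permutation test gave p = 0.2, two-sided. Without placebo array 1 the groups parted, with a difference of -1.60 (SE 0.684, limma adjusted p = 0.418). They also parted without RU486 array 3, at -1.62 (SE 0.659), where 13.7% of all probes were separated downwards. Without RU486 array 2 it shrank to -0.776.

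Tsc22d3 encodes GILZ, a leucine zipper protein that carries part of the anti-inflammatory action of glucocorticoids. It scored -0.517, 1.66 and 0.576 on the placebo arrays and -1.17, -0.0448 and -0.506 on the RU486 arrays. Placebo arrays 2 and 3 stood above every RU486 array, and placebo array 1 lay among them. The difference was -1.15 (SE 0.710, limma adjusted p = 0.581). Leaving out placebo array 1 gave -1.69, with groups that no longer overlapped, and leaving out placebo array 2 gave -0.604.

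Dusp1 makes a phosphatase that switches off MAP kinases and is induced by stress and growth factors as well as by glucocorticoids. The placebo arrays were close together, at -0.217, -0.226 and -0.462. The RU486 arrays spread to both sides of them, at 0.832, 1.45 and -1.38. The difference of 0.604 (SE 0.861, limma adjusted p = 0.799) was well within that spread, with an SD of 1.49 over the 3 RU486 arrays and 0.139 over the 3 placebo arrays. Without RU486 array 3, Dusp1 was higher with RU486 by 1.44 (SE 0.253, limma adjusted p = 0.571) and passed an unadjusted p of 0.05, as did 2.43% of all probes in that direction, while without RU486 array 2 the difference was 0.0299. A list of 23 immediate early genes, which respond to handling and growth factors, was taken without Dusp1. At an unadjusted p of 0.05, with all 6 arrays, 4 probes were lower and 1 higher (6.39% and 5.32% of all probes). The median of the list was -0.33, or -0.85 without placebo array 1. The smallest p in the list were those of Nr4a1 (-1.61), Dusp5 (-1.60) and Ier2 (-1.59).

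Sgk1, the serum and glucocorticoid regulated kinase gene, acts on sodium transport and cell survival. Its placebo scores were 1.09, 0.412 and 1.12 and its RU486 scores were -1.04, -0.670 and -0.920. All RU486 arrays lay below all placebo arrays, with a gap of 1.08 between the groups. The difference was -1.75 (SE 0.257, limma adjusted p = 0.286), and the exact permutation p was 0.1, the smallest that 3 against 3 arrays can give. It stayed between -1.98 and -1.63 with any array left out.

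Errfi1 encodes MIG6, which binds and inhibits the EGF receptor family. It scored 1.34, 0.517 and 0.699 on the placebo arrays and -0.526, -0.785 and -1.25 on the RU486 arrays. The groups were 1.04 apart and the difference was -1.70 (SE 0.327, limma adjusted p = 0.329). Without placebo array 1, the highest of the 6, it was -1.46. Of 20 probes for EGF receptors, their ligands and ERK feedback inhibitors, 5 passed an unadjusted p of 0.05, all lower, among them Hbegf (-1.77), Erbb2 (-1.65) and Tgfa (-1.64). Over all probes 6.39% were lower at that p. The median of the 20 probes was -0.37, or -0.69 without placebo array 1.

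Arrdc2 belongs to the alpha-arrestins, adaptors for the sorting of membrane proteins. Scores were 0.574, 1.14 and 0.936 with placebo and -1.21, -0.703 and -0.740 with RU486. The groups were 1.28 apart, with a difference of -1.77 (SE 0.231, limma adjusted p = 0.272). Of the 10 genes it was the one whose scores followed the mean of the other 9 most closely (r = 0.973 over 6 arrays). Hif3a and Lcn2 came next, with r of 0.907 and 0.930, and Dusp1 was the 1 gene with a negative r, at -0.331. Such r values mostly carry the shared gap between the groups and are given as a description.

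Zbtb16 encodes the transcription factor PLZF and responds to glucocorticoids and progestins in several tissues. It scored 0.354, 0.926 and 1.12 on the placebo arrays and -0.372, -1.54 and -0.490 on the RU486 arrays. RU486 array 2 was far below the other RU486 arrays, and the nearest arrays of the groups were 0.726 apart. The difference was -1.60 (SE 0.438, limma adjusted p = 0.396) and shrank to -1.23 (SE 0.301) without RU486 array 2. It no longer passed an unadjusted p of 0.05 without placebo array 2 (-1.54) or without placebo array 3 (-1.44), where 5.26% and 4.64% of all probes were lower at that p.

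Hif3a is a member of the family of hypoxia-inducible factors and some of its forms restrain the others. Its placebo arrays were tight, at 0.980, 0.935 and 0.748, and its RU486 arrays stood at -0.487, -1.12 and -1.05. The gap between the groups was 1.24. Of the 10 genes Hif3a had the largest difference, at -1.78 (SE 0.213, limma adjusted p = 0.256), with 94.5% of its sum of squares between the groups.

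Ddit4 encodes REDD1, an inhibitor of mTORC1 that hypoxia and stress induce as well. It scored -0.107, 1.48 and 0.421 with placebo and -0.621, 0.3003 and -1.47 with RU486. Placebo array 1 lay below RU486 array 2, and the difference was -1.19 (SE 0.691, limma adjusted p = 0.552). Without RU486 array 2 the groups parted, at -1.64, where 18.2% of all probes were separated downwards, as they did without placebo array 1, at -1.54, and the difference was -0.754 without placebo array 2 and -0.757 without RU486 array 3. Among 22 probes of other hypoxia response genes 2 passed an unadjusted p of 0.05, both lower and both for Higd1a (-1.79 each), and the median was -0.55. Over all probes 6.39% were lower and 5.32% higher at that p. Among 15 genes of the amino acid and endoplasmic reticulum stress response 3 were lower and 0 higher at that p, with a median of -1.18.

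Lcn2 encodes lipocalin 2, a secreted protein that binds bacterial iron carriers and is made by neutrophils and by epithelia under stress. The placebo arrays scored 0.897, 0.887 and 0.862, the closest placebo group among the 10 genes (SD 0.0180, n = 3). The RU486 arrays scored -1.34, -0.573 and -0.735, and the groups were 1.43 apart, the widest gap of the 10. The difference was -1.76 (SE 0.234, limma adjusted p = 0.272). On placebo array 1 Lcn2 was close to its scores on the other placebo arrays. The neutrophil genes ran from -1.38 (Csf3r) to 2.04 (Ngp) there. Of 17 probes for 16 neutrophil genes, 13 were lower with RU486, against 50.1% of all probes. At an unadjusted p of 0.05 the lower ones were 3, S100a8 (-1.57), Retnlg (-1.52) and S100a9 (-1.51), against 6.39% of all probes. The median of the 17 was -0.89. Without placebo array 1 it was -0.52, and 11 of the 17 were lower. In that fit 7 were separated downwards, against 20.9% of all probes, and 0 were lower at that p, against 8.24%. Lcn2 stood at -1.76 in that fit. The mean score of the neutrophil probes ran from 0.00905 to 0.546 over the placebo arrays and from -0.557 to -0.0223 over the RU486 arrays. Their part in the Lcn2 result was not tested. Because each probe is scaled, it cannot be seen which cell markers are at background, and in bulk tissue fewer cells of a type and less RNA per cell cannot be told apart.

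**Figure D2:**
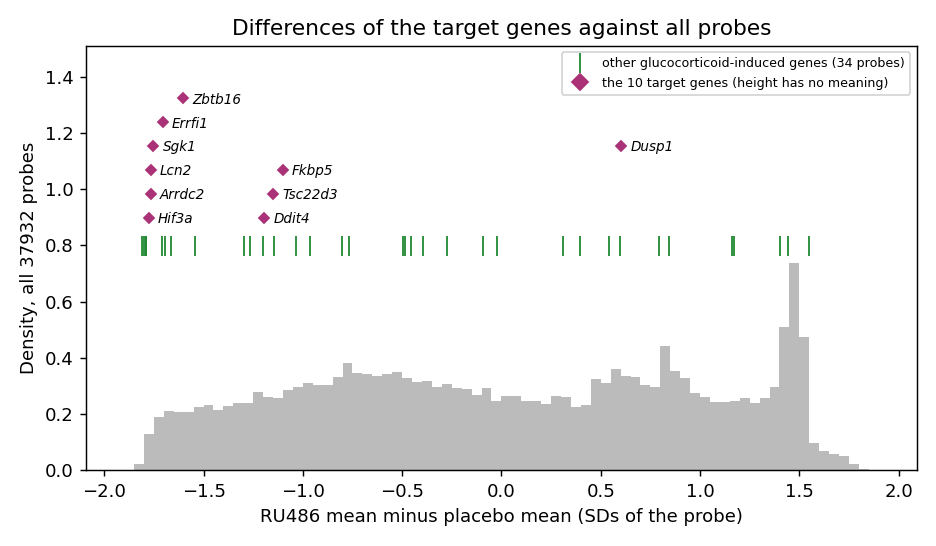
Differences between the RU486 and placebo means (x axis, in SDs of the probe) for all 37932 probes (grey, as a density), with the 10 target genes as diamonds, whose height has no meaning, and 34 probes of other glucocorticoid-induced genes as green ticks. Of the 10 genes 6 lie beyond -1.48, Ddit4, Tsc22d3 and Fkbp5 lie between -1.19 and -1.10, and Dusp1 lies at 0.604.

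The arrays that were high or low were not the same from gene to gene. Among the 10 genes placebo array 1 was the lowest of the placebo arrays in 5 and the highest in 4, and RU486 arrays 1, 2 and 3 were the lowest of their group in 4, 3 and 3. Fkbp5, Tsc22d3 and Ddit4 had the highest of their 6 scores on placebo array 2 and were low on placebo array 1. Sgk1 and Errfi1 had their lowest placebo score on placebo array 2 instead. Averaged over the 10 genes, the score was 0.395, 0.890 and 0.695 on placebo arrays 1 to 3 and -0.687, -0.488 and -0.805 on RU486 arrays 1 to 3.

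When each array was left out in turn, the sign and the separation of the 6 separated genes could not change. Of the 4 genes with overlapping groups, where the sign could change, it did not in any of these fits. Without placebo array 1 all 9 genes that were lower had groups that did not overlap, where 20.9% of all probes did so in that direction, and 6 passed an unadjusted p of 0.05, where 8.24% of all probes did. The count was also 6 without RU486 array 1, 2 or 3 (4.14%, 6.12% and 4.71% of all probes). It was 5 without placebo array 2 or 3 (5.26% and 4.64% of all probes). Apart from Dusp1 without RU486 array 3, none of the 10 genes was higher at that p in limma, and the share of all probes higher was 2.21%, 1.45% and 1.46% without placebo arrays 1, 2 and 3 and 2.58% and 11.6% without RU486 arrays 1 and 2. With the replicate number as a block 5 genes were lower and 0 higher (4.67% and 1.66% of all probes), and with array weights 8 were lower and 0 higher (11.6% and 13.6%). Fkbp5, Tsc22d3 and Ddit4 were the genes that moved most among those lower with RU486.

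**Figure D3:**
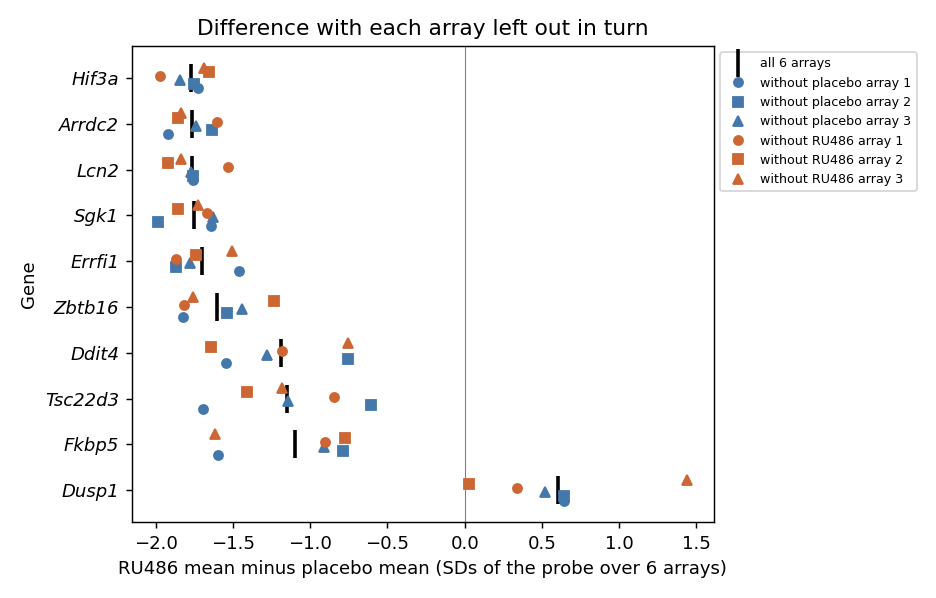
Difference between the RU486 and placebo means of each target gene (x axis, in SDs of the probe over 6 arrays) with all arrays (black tick) and with each array left out in turn (blue, a placebo array left out; orange, an RU486 array left out; shape gives the array). The 9 lower genes stay below 0 throughout, and Dusp1 runs from 0.0299 to 1.44.

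Other genes known to be induced by glucocorticoids were less uniform. Of 30 such genes, measured by 34 probes, 23 probes were lower with RU486, 8 of them at an unadjusted p of 0.05, 1 was higher at that p and 25 did not pass. Over all probes 50.1% were lower, 6.39% were lower at that p and 5.32% were higher at it. The median difference of the 34 probes was -0.49. None passed an adjusted p of 0.05 over all probes in limma. Without placebo array 1 the median was -0.92 and 10 probes were lower at an unadjusted p of 0.05, against 8.24% of all probes.

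The transcription factor genes Cebpd and Klf15, both rapid glucocorticoid targets, were among the lower ones. Cebpd scored 1.09, 0.773 and 0.843 with placebo and -0.873, -0.715 and -1.11 with RU486, a difference of -1.80 (SE 0.150, limma adjusted p = 0.205). Klf15 scored 0.974, 0.795 and 0.916 with placebo and -1.19, -0.912 and -0.587 with RU486, a difference of -1.79 (SE 0.181, limma adjusted p = 0.208). Rgs2, a regulator of G protein signalling, had the largest difference of this list, at -1.81 (SE 0.122, limma adjusted p = 0.187), with placebo scores from 0.884 to 0.920 and RU486 scores from -1.09 to -0.676. The groups of these 3 genes were far apart, and each varied little within a group. Others lower at an unadjusted p of 0.05, beside the metallothionein probes described next, were Crispld2 (-1.79), a gene of a secreted protein, the tyrosine aminotransferase gene Tat (-1.66), known as a glucocorticoid target in liver, and Zfp36 (-1.54), whose product degrades cytokine messages.

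The metallothionein genes, whose products bind zinc and whose promoters glucocorticoids and metals activate, gave a mixed picture at the level of probes. Mt2 was lower at an unadjusted p of 0.05, at -1.71 (SE 0.318), with placebo scores of 0.880, 0.830 and 0.857 and RU486 scores of -0.670, -1.47 and -0.422. For Mt1 one probe passed the same threshold, at -1.69 with separated groups, and the other gave -0.77 with groups that overlapped (-1.23 without placebo array 1). G6pc, a gene of glucose release in liver, was the 1 gene of the list higher at an unadjusted p of 0.05, at 1.55 (SE 0.485, limma adjusted p = 0.396). G6pc and Zfp36 each no longer passed that p without placebo array 1 (1.63 and -1.43), placebo array 3 (1.17 and -1.41), RU486 array 2 (1.37 and -1.75) or RU486 array 3 (1.45 and -1.76). Per1, a clock gene with a glucocorticoid response element, had probes at -1.20 and -0.27, or -1.78 and -0.92 without placebo array 1. Klf9 (-0.46) and the NF-kB inhibitor gene Nfkbia (-0.49) had overlapping groups, also without placebo array 1 (-0.97 and -0.75).

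The receptor and the enzymes that supply its ligand were looked at beside their targets. The glucocorticoid receptor gene Nr3c1 scored -1.61, 0.154 and 0.625 on the placebo arrays and 0.188, 1.26 and -0.618 on the RU486 arrays, a difference of 0.55 (SE 0.870, limma adjusted p = 0.813) that was -0.11 without placebo array 1. The mineralocorticoid receptor gene Nr3c2 stood at -0.02 (SE 0.913), or -0.55 without placebo array 1. Pgr had 2 probes, at 1.60 with separated groups and at 0.42 with overlapping groups (1.76 and 0.13 without placebo array 1), and whether either tells the B form from the A form is not known. Hsd11b1, which regenerates active corticosterone, stood at -1.42 (SE 0.576, limma adjusted p = 0.401) and Hsd11b2, which inactivates it, at -1.29 (SE 0.644, limma adjusted p = 0.484). Both had separated groups with their top score on placebo array 1, at 1.51 and 1.92, and without it they stood at -1.01 (SE 0.533) and -0.66 (SE 0.122). Fkbp4, the co-chaperone that Fkbp5 competes with, stood at 0.81 (SE 0.819) with overlapping groups, or 0.37 without placebo array 1.

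Set beside other gene lists, the 10 genes had a lower median than each of them but the mitosis list. Mitosis genes had a median of -1.71 over 24 probes. At an unadjusted p of 0.05, 22 were lower and 1 was higher, against 6.39% and 5.32% of all probes. Progesterone receptor targets of uterus and ovary had a median of -0.57 over 26 probes, of which 7 were lower and 3 higher by the same threshold. The lower ones included Lrp2 (probes at -1.81, -1.80 and -1.49) and Hand2 (-1.78). The 3 higher ones were Tnfsf11 (1.64), Cited2 (1.52) and Zbtb7b (1.51). The difference between lists was not tested. Leaving out placebo array 1 moved the number of probes lower at an unadjusted p of 0.05 from 5 to 8 in the EGF receptor list, from 2 to 4 in the hypoxia list, from 3 to 1 in the stress list and from 1 to 5 in the endothelial list. Over all probes the share lower at that p went from 6.39% to 8.24%. The 5 named genes outside the list whose scores were most like the mean of the 10 genes were Rad21, Ada, Cdc7, Pold2 and Ergic2, with r from 0.993 to 0.996 over 6 arrays, and 298 of 24893 other named probes had an r of at least 0.95. With 6 arrays in separate groups such values are easily reached, and they are given as a description.

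**Figure D4:**
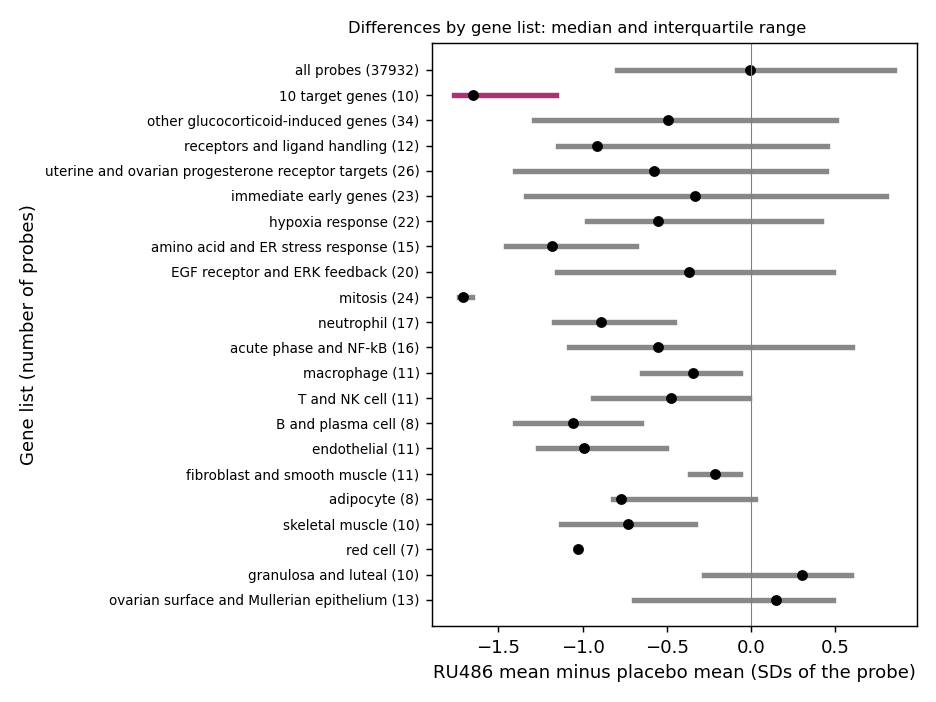
Median difference between RU486 and placebo (point) and interquartile range of the probes (bar) for all probes and for each gene list (x axis, in SDs of the probe; the number of probes is given beside each list). The 10 target genes have a median of -1.65, the mitosis list -1.71 and all probes -0.00566.

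Markers of other cells that a tumour piece can hold were also read. In the red cell list 7 of 7 genes were lower with RU486 with separated groups, against 10.05% of all probes, and the median was -1.03. With placebo array 1 left out, that median was -0.28, and 7 of 7 were still separated downwards, against 20.9% of all probes. At an unadjusted p of 0.05 in limma, 0 of the 7 were lower in either fit, against 6.39% and 8.24% of all probes. The mean score of the 7 was -0.419 on placebo array 2, close to the -0.555 to -0.520 of the RU486 arrays. B and plasma cell genes had a median of -1.06 over 8 probes, with mean scores from 0.115 to 0.952 on the placebo arrays and from -0.747 to -0.173 on the RU486 arrays. Endothelial genes had a median of -0.99 over 11 probes, and their mean score overlapped between the groups, with 0.458 on RU486 array 3. Medians were -0.34 for macrophage, -0.47 for T and NK cell, -0.21 for fibroblast and smooth muscle (-0.66 without placebo array 1), -0.77 for adipocyte, -0.73 for skeletal muscle and -0.55 for acute phase genes. Granulosa and luteal genes had a median of 0.30, which turned to -0.056 without placebo array 1, and genes of ovarian surface and Müllerian epithelium one of 0.15, or 0.0031 without it. The part of these cells in the values of the 10 genes was not tested.

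**Figure D5:**
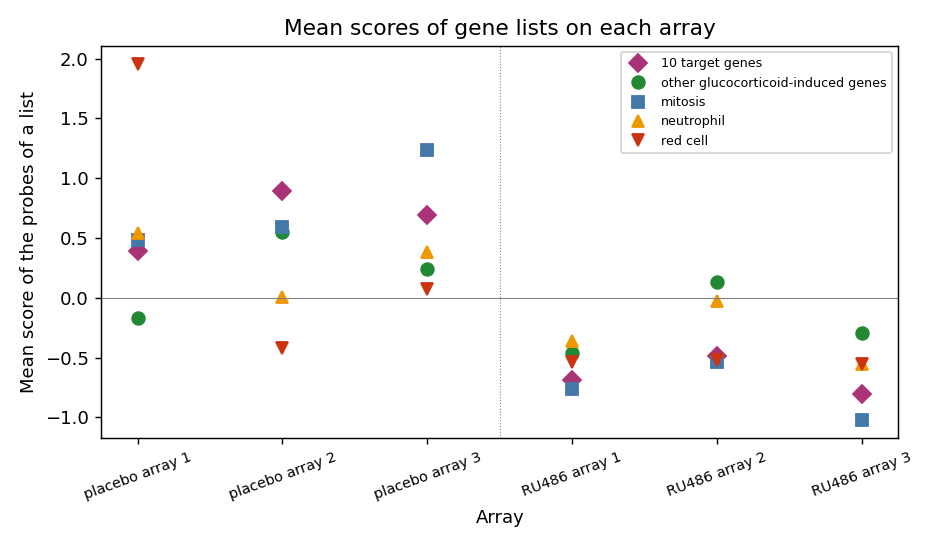
Mean score of the probes of 5 gene lists (y axis) on each of the 6 arrays (x axis). The 10 target genes and the mitosis genes lie above 0 on the 3 placebo arrays and below 0 on the 3 RU486 arrays, whereas the red cell genes are at 1.96 on placebo array 1 and between -0.555 and 0.0737 on the other arrays.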

How the data were processed

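Tumour RNA was measured on 6 single-colour arrays, grouped and numbered by their titles. The authors deposited scores; the values themselves show that every probe was centred to mean 0 and scaled to SD 1 over the 6 arrays. Partek is named per the submitters' processing notes. For its version, the background correction, the normalization, any filter and the scale's direction, the entry is: not given in the sources used here. Higher scores were read as brighter probes. No filter on low values could be applied, signal over background is unknown and the number of arrays limits the precision.

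Gene names came from the platform annotation, in which 24903 probes had 1 symbol, 0 several and 13029 none, and 24627 matched RefSeq (GRCm38.p6) by Entrez ID. All 37932 probes were fitted with limma 3.58.1 in R 4.3.3, with the ordinary statistic on 4 residual degrees of freedom, two-sided, and Benjamini-Hochberg adjustment over all probes at 0.05. The fit was tested on simulated data. Named genes were the 10 targets, other glucocorticoid-induced genes at an unadjusted p of 0.05 with a fixed panel of 6, 6 receptor and enzyme genes, and up to 3 genes of smallest p in each further list. Ngp, Elane, Csf3r, Stfa2, Tnfsf11, Cited2 and Zbtb7b were named after their values were seen. The printing of the Dusp1 promoter was also chosen then. The members and lists were chosen with earlier results of these data known. Alternatives were eBayes moderation, array centring, quantile normalization, array weights, a replicate block, named probes alone, gene averages and each array left out.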

Additional observations from a re-analysis of the deposited data

How the results depend on the processing

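The 10 genes were refitted under 13 alternatives each. The difference itself is the same by construction with eBayes moderation, the replicate block, named probes alone and gene averages. Array centring moved the difference of every probe by the same amount. That amount was smaller than each of the 10 differences, so no sign could change there. With array weights or an array left out, a sign could change only for the 4 genes with overlapping groups. It did not change for these 4 genes, nor for any of the 10 with quantile normalization. None of the 10 genes passed an adjusted p of 0.05 in limma under any of the 13 alternatives. At an unadjusted p of 0.05 from 5 to 8 genes were lower, and 0 were higher except without RU486 array 3, where Dusp1 was, so that the range over left-out arrays was 0 to 1. The number of all probes at an adjusted p of 0.05 was 2, and it was 0 with eBayes moderation, with arrays centred on their medians, with quantile normalization and with the replicate block, 8 with array weights, 1 with the probes of a gene averaged, and from 1 to 4 with an array left out. With array weights, which gave placebo array 2 a weight of 4.81 and RU486 array 2 one of 0.355, Tsc22d3 (-2.10) and Ddit4 (-2.02) passed an unadjusted p of 0.05 too, and 11.6% of all probes were lower at that p. The titles number the replicates but do not say that they are paired. Deviations of same-numbered arrays from their group means correlated at 0.266, 0.077 and -0.239, and placebo array 3 was most like RU486 array 2. The deviations of the 3 arrays of a group sum to 0 for each probe, so these correlations cannot settle whether the samples are paired. With the replicate block 5 of the 10 genes were lower at an unadjusted p of 0.05, against 4.67% of all probes, and Zbtb16 did not pass. A filter on low values was not run, since centred scores carry no level.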

Other observations

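The differences of all probes were not spread evenly around 0. Between 1.4 and 1.55 lay 3269 probes (8.62%), against 1277 (3.37%) in the mirrored range below 0. In these 3269 probes the median scores were -0.303, -0.780 and -1.13 on placebo arrays 1 to 3 and 1.01, -0.152 and 1.34 on RU486 arrays 1 to 3, and 39.8% had no gene symbol, against 34.3% of all probes. None of the 10 glucocorticoid receptor targets lay in that range, while G6pc did.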
